A study of Mus musculus with 8 samples.

Results

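The genes described here are mouse zinc finger genes named Zfp with a number. They were chosen by symbol, leaving out Zfp36, Zfp36l1, Zfp36l2 and symbols containing -ps, and by their abundance, a normalised read count of 10 or more in 4 or more of the 8 libraries of either genotype. That left 331 members of the 34432 rows in the table. The table held 416 Zfp rows with a number, of which 11 were dropped by name, and 74 more lay under the count threshold, 29 of them listed at 0 in every library. Of the members, 328 were annotated as protein-coding and 3 as transcribed pseudogenes.

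The libraries were polyadenylated RNA from bone marrow-derived macrophages, grown from mouse marrow and collected untreated on day 7 of differentiation. There were 4 control libraries (VavCre), which carried a Cre recombinase under the Vav promoter, and 4 double knockout libraries (DKO), whose genotype is given as Cdk8 flox/flox Vav-iCre Cdk19null. Vav is active throughout the blood-forming lineages, so the recombinase was not limited to macrophages. The sources used here do not give the floxed part of Cdk8, the type of null allele, the age of the mice or the Cdk8 alleles of the controls. Cdk8 and Cdk19 encode alternative kinases of Mediator, the complex that passes signals from DNA-bound factors to RNA polymerase II, and the comparison asks how Zfp transcripts differed when both were targeted.

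A C2H2 zinc finger is a short fold in which a pair of cysteines and a pair of histidines hold a zinc ion, and strings of such fingers read DNA or RNA. In many mammalian genes the fingers follow a KRAB box, which recruits the corepressor Trim28 and with it the histone methyltransferase Setdb1, best known for keeping retroelements and imprinted regions silent. KRAB zinc finger genes multiplied in tandem clusters, whereas many of the others encode conserved regulators of transcription, RNA or ubiquitin.

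To show the repeat by which the members were described, the coding sequence of the last finger of 4 members is given 5′ to 3′, with the codons of the zinc-holding cysteines and histidines in capitals. Zfp459 and Zfp382 were found to have a KRAB box, and Zfp710 and Zfp281 were not.
Zfp459: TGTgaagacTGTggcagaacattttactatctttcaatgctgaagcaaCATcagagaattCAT
Zfp382: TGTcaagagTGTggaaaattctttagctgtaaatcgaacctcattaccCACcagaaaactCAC
Zfp710: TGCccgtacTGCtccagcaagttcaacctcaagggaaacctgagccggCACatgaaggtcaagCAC
Zfp281: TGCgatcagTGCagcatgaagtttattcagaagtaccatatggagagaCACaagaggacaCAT
A KRAB box was found in 200 of the 328 members with an annotated protein. The number of fingers ran from 0 to 36, with a median of 11. The median was 12 with a KRAB box and 7 without one.

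Promoters are shown for 2 of the 12 largest falls and 2 of the 12 largest rises among called members with a mean count of 50 or more, from 250 bases before to 50 bases after a RefSeq start site (build GRCm38.p6), on the gene's strand. Capitals mark matches to short motifs searched on both strands. E2F was taken as the letters TTTGGCGC and also as the letters TTTCCCGC. NF-Y was searched as CCAAT, the GC box as the run GGGCGG, the ETS motif as the run CCGGAAGT, the CRE as the run TGACGTCA and the E-box as CACGTG. The TATA box was searched as TATAAA, the CHR element of cell cycle genes as TTTGAA, and the NRF1 motif by its consensus. Zfp618 lies at chr4:62965317-62965616 (plus strand), Zfp367 at chr13:64153150-64153449 (minus strand), Zfp459 at chr13:67421369-67421668 (minus strand) and Zfp821 at chr8:109705258-109705557 (plus strand). Other RefSeq start sites exist for Zfp367 and Zfp821 and are not shown.
Zfp618: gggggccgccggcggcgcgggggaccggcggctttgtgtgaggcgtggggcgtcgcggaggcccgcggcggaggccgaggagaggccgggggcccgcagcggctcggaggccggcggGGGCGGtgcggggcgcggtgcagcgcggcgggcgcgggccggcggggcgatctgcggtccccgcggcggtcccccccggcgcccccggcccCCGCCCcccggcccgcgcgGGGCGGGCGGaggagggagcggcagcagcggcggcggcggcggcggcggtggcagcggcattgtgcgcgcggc
Zfp367: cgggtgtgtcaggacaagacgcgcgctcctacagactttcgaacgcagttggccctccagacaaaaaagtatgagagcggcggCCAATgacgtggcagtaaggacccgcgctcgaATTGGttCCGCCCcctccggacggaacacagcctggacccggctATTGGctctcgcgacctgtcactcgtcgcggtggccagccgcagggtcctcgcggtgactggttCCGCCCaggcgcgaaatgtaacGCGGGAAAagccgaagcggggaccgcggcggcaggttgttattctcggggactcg
Zfp459: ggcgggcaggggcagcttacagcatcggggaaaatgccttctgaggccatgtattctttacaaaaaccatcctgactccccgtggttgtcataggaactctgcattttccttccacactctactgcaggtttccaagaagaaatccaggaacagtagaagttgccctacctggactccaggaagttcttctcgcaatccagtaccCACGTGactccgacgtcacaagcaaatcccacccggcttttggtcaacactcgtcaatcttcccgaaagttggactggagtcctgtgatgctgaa
Zfp821: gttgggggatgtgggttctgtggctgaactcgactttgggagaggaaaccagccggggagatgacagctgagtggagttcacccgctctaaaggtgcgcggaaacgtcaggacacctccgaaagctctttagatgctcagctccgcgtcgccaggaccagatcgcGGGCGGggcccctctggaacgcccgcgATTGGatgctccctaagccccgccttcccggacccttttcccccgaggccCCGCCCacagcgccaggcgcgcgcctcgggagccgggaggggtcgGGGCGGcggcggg
The Zfp367 window held 3 NF-Y matches, 2 GC boxes and an E2F match at position -5 from the start site. Of these motifs, the Zfp618 window held GC boxes alone and the Zfp459 window an E-box at -45 alone. RefSeq promoters were found for 279 members (334 windows). The E2F letters stood in 3.89% of these windows, in 2.98% of the 11694 windows of all genes tested and in 1.56% of all 32851 promoter windows. In the same order, NF-Y stood in 47.9%, 37.9% and 37.4%, and ETS in 10.5%, 8.51% and 3.89%. The GC box stood in 46.4%, less often than in the genes tested (62.2%) and more often than in all promoters (35.7%), and TATA in 6.59%, 7.06% and 13.6%. KRAB-box members held NF-Y in 53.8% of windows and the GC box in 35.2%, and members without a KRAB box in 38.6% and 62.1%. Members called lower held the E2F letters in 2 of 34 windows (5.88%), at the start sites of Zfp367. Members called higher held them in 3 of 37 windows (8.11%). Some shorter motifs lie within or over others, and a match is only a description of the letters.

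The libraries held 17856715 to 21353207 reads, with 0.456% to 0.543% of them on the Zfp members. Cdk19 stood at 1299, 1295, 1530 and 1682 normalised reads in VavCre and at 396, 392, 361 and 342 in DKO, so that 25.7% of the control mean was left (log2 fold change -1.95, adjusted p = 2.95e-08, limma). Cdk8 stood at 466, 449, 408 and 432 in VavCre and at 429, 309, 357 and 294 in DKO. The first DKO library lay within the control range (log2 -0.35, adjusted p = 0.0374), and the call was lost without any 1 of VavCre replicates 1, 2 and 4 or DKO replicates 2, 3 and 4, with adjusted p up to 0.104. A gene total also counts exons that were not floxed, so for Cdk8 it is no check of the deletion. Whether replicates were separate animals or cultures is not stated in the labels, and all p-values here rest on the spread between libraries, which may be technical. DKO libraries 1 and 2 lay close together, as did 3 and 4 (chi-square per gene 8.01 and 9.08, against 19.2 to 26.4 between these pairs), so counts are also given with each pair averaged. Between VavCre libraries the same measure ran from 9.29 (2 and 3) to 38.2 (1 and 4), and none of these were averaged. All 10 macrophage markers were read in every group, with 5 higher and 5 lower in DKO and a summed level of 309679 to 325951 in VavCre and 229442 to 246519 in DKO. The defining T cell markers Cd3e, Cd3d, Cd3g and Trac and the globin genes Hbb-bs and Hba-a1 were listed at 0.

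Fewer of the Zfp transcripts than of all genes tested were called different between the genotypes, and the calls were split between rises and falls. Tested among all 11675 genes that met the same count threshold, 38 members were higher and 34 lower in DKO at an adjusted p under 0.05 (limma on log2(value + 1), Benjamini-Hochberg over all genes tested). That is 21.8% of the members. Over all genes tested, 46.6% were called, 22.9% higher and 23.8% lower. The median log2 fold change was 0.002 over the members and 0.005 over all genes tested. The 95% interval lay within 1.5-fold of no change for 45.6% of the members and 47.4% of all genes, so for the other members a missing call does not show like levels. At least 2-fold and called were 5 members higher and 9 lower, and over all genes 10.9% were called at this size. The 2 groups of libraries did not overlap for 63 members, or 19.0%, against 42.9% of all genes. With DKO libraries 1 and 2 averaged and 3 and 4 averaged, 24 members were higher and 23 lower (14.2%), and 35.5% of all genes were called. Under quantile normalization, which raised the median of the members to 0.11 and that of all genes to 0.05, 53 members were higher and 22 lower, so that 70.7% of the calls were higher against 52.8% with the authors' scaling.

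**Figure D1:**
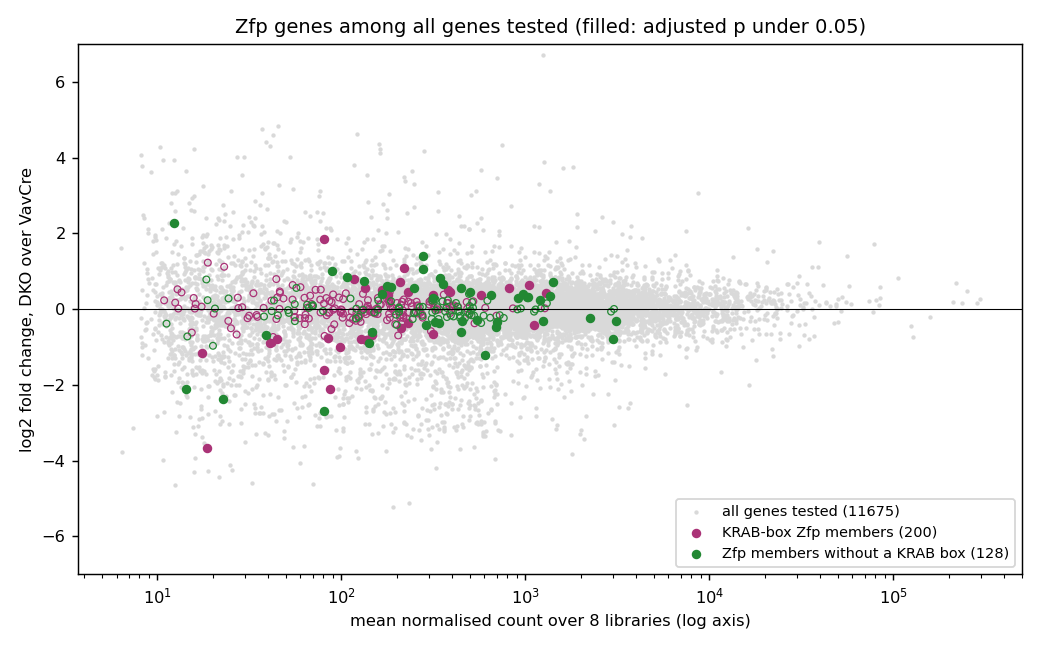
Log2 fold change of DKO over VavCre (vertical axis) against the mean normalised count over the 8 libraries (horizontal log axis) for the 11675 genes tested (grey) and for the Zfp members with an annotated protein, 200 with and 128 without a KRAB box. Filled points passed an adjusted p of 0.05, and most members lie near 0 as open points at mean counts between 10 and 1000.

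The members are genes of low count, so their share of calls was set beside that of other genes at a like level. The members' mean counts ran from 10.9 to 3125 with a median of 178, and the median over all genes tested was 561. Between mean counts of 100 and 250, 19.8% of 101 members were called and 42.3% of 1439 other genes. The median standard error there was 0.17 on the log2 scale in both sets, while the median size of the log2 fold change was 0.21 in the members and 0.37 in the others. Between 250 and 1000, 24.8% of 101 members and 47.6% of 3963 other genes were called, and between 50 and 100, 13% of 54 members and 36.9% of 662. Under 50 the shares were 14.3% of 56 and 27.6% of 1303. At 1000 and above, 63.2% of the 19 members were called, 7 higher and 5 lower, beside 57.2% of 3977 other genes. Other genes whose proteins have 3 or more C2H2 fingers lay between both sets at each level under 1000, with 28.3% of 46 called between 100 and 250. These shares are descriptions and were not tested against each other.

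Members with few fingers were called more often than members with many. Of the 26 members with 0 to 2 fingers, 12 were called (46.2%), 7 higher and 5 lower. That share was near the 46.6% of all genes tested, and the shares with more fingers lay below it. With 3 to 7 fingers 25 of 67 were called (37.3%), with 8 to 11 fingers 22 of 100 (22%), with 12 to 15 fingers 10 of 77 (13%), and with 16 or more 3 of 58 (5.17%). The last 3 were Zfp40, Zfp738 and Zfp780b, the latter pair named after their values were seen. Members with few fingers were also read more, with median mean counts of 358, 244, 160, 134 and 140 from the fewest to the most fingers. Within the levels under 1000 the order was the same. Under 100, 30.4% of 23 members with up to 7 fingers, 15.2% of 33 with 8 to 11 and 5.77% of 52 with 12 or more were called. Between 100 and 250, 8 of 21 members with up to 7 fingers were called (38.1%), 7 of 35 with 8 to 11 and 5 of 44 with 12 or more (11.4%). Between 250 and 1000 the numbers were 16 of 39, 5 of 24 (20.8%) and 4 of 38 (10.5%). At 1000 and above, where 10, 8 and 1 members were left, 6, 5 and 1 were called. Across the 328 members with a protein, the log2 fold change had a Spearman correlation of -0.04 with the number of fingers, and its size one of -0.09. These correlations are across genes of the same 8 libraries and are given as descriptions.

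**Figure D2:**
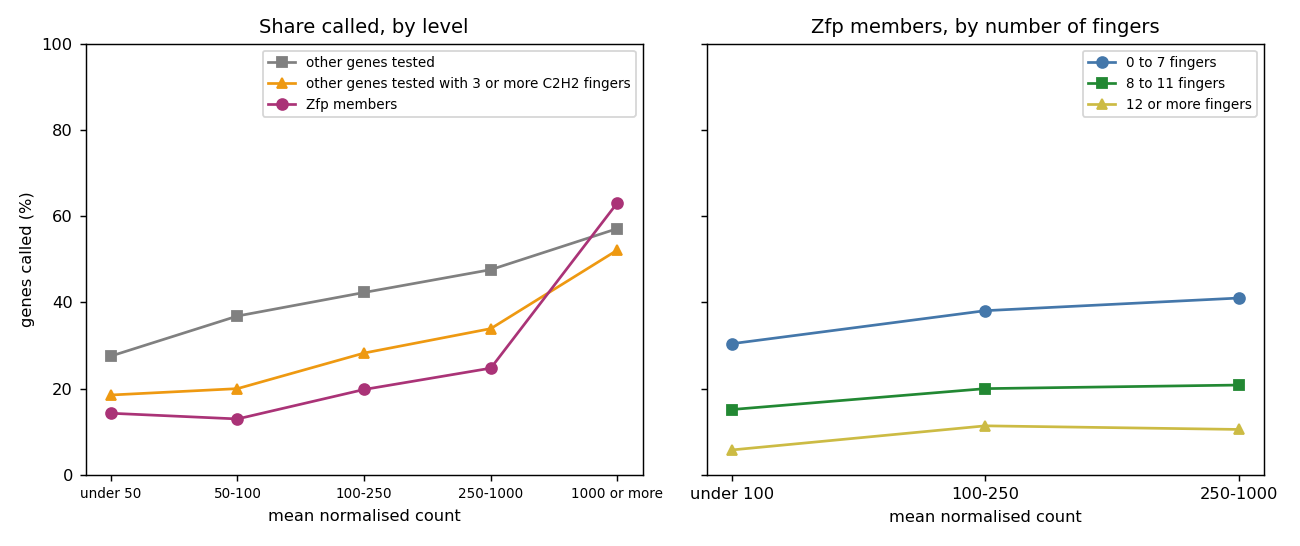
Share of genes called at an adjusted p under 0.05 (vertical axis, percent) by mean normalised count (horizontal axis, classes), on the left for Zfp members, other genes with 3 or more C2H2 fingers and all other genes tested, on the right for Zfp members by number of fingers. Members lie under the other genes in each class below 1000 and reach 63.2% above it, and at the 3 levels drawn on the right, all under 1000, members with 12 or more fingers lie between 5.77% and 11.4%.

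With a KRAB box, 15 members were higher and 15 lower (15% of 200, against 46.6% of all genes tested, median log2 fold change 0.01). Without one, 23 were higher and 19 lower (32.8% of 128, median -0.02), the latter being 12 without VavCre replicate 4. Under quantile normalization 25 members with a KRAB box were higher and 10 lower, and 28 without one were higher and 12 lower. In that setting 47.5% of all genes tested were called. With the DKO pairs averaged the counts were 9 and 11 with and 15 and 12 without a KRAB box. There 35.5% of all genes tested were called. KRAB-box members were read less, with a median mean count of 132 against 325. Between mean counts of 100 and 250, 15.8% of 76 members with and 33.3% of 24 without a KRAB box were called, and between 250 and 1000, 15.4% of 39 and 30.6% of 62. At 1000 and above the order turned, with 3 of 4 and 9 of 15. None of the 3 pseudogenes was called by limma, edgeR or DESeq2, or had an unadjusted p under 0.05. Genes under other names gave like shares, at 17.5% of 63 with a KRAB box and 37.0% of 119 with 3 or more fingers and no KRAB box. Among the families named by other domains, 7 of 37 Zbtb genes were higher and 5 lower (32.4% called, against 46.6% of all genes tested). Of 18 Zscan and Zkscan genes, 5 were higher and none lower by limma, edgeR and DESeq2 alike. That is 27.8% called, all higher, where 22.9% of all genes tested were higher. At an unadjusted p under 0.05, 8 were higher and 1 lower, and the median log2 fold change was 0.24.

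The steepest falls among members with a mean count of at least 50 were those of Zfp618 and Zfp382. Zfp618, whose human counterpart binds UHRF2, stood at 128, 104, 138 and 188 in VavCre and at 15.5, 26.1, 28 and 14.6 in DKO. All DKO libraries lay far below all controls, with 15.1% of the control mean left (139 ± 35.3 to 21.1 ± 6.98, SD, n = 4, log2 -2.69, SE 0.28, adjusted p = 1.08e-05, limma). Zfp618 (ENSMUSG00000028358, chr4:62965573-63139708, mm10) encodes 4 fingers by the count used here and has no KRAB box. Zfp382, a KRAB zinc finger gene with 9 fingers (ENSMUSG00000074220, chr7:30121942-30134950), stood at 69.8, 84.1, 123 and 299 in VavCre and at 20.4, 17.1, 59.0 and 26.3 in DKO. The control libraries were spread widely, the fourth being the highest, and no DKO library reached the lowest of them (log2 -2.12, SE 0.48, adjusted p = 0.00366). Without single libraries its log2 fold change lay between -2.48 and -1.69, and the call held.

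Zfp948, a KRAB zinc finger gene with 15 fingers, stood at 117, 107, 133 and 130 in VavCre and at 34, 29.2, 49 and 46.8 in DKO (log2 -1.62, SE 0.22, adjusted p = 8.28e-05, limma). Zfp367, a gene with 2 fingers and no KRAB box whose promoter is shown above, stood at 878, 715, 799 and 992 in VavCre and at 320, 404, 335 and 383 in DKO. Every DKO library lay under every control, a fall to 42.6% of the control mean (log2 -1.22, SE 0.12, adjusted p = 5.67e-06). An annotated antisense gene, Gm47513, overlaps Zfp367, and whether counting used strand is not stated, so reads of the pair may be mixed. Zfp101 held 139, 107, 153 and 131 in VavCre and 63.1, 65.3, 66.0 and 65.3 in DKO, where the 4 libraries agreed closely (log2 -1.01, adjusted p = 0.000437).

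Zfp710, a gene with 11 fingers and no KRAB box, was among the most highly read members. It held 3369, 4116, 3794 and 3961 in VavCre and 2216, 2329, 2227 and 1972 in DKO (3810 ± 322 to 2186 ± 151, log2 -0.80, SE 0.08, adjusted p = 5.42e-06, limma). The highest DKO library was more than 1000 below the lowest control. The remaining falls of the 12 largest were Zfp280c, Zfp809, Zfp40, Zfp287, Zfp934 and Zfp111, with log2 fold changes from -0.89 to -0.66 and adjusted p from 0.00451 to 0.0112. In Zfp280c the third VavCre library (109.9) stood just above the highest DKO library (109.7). Zfp934 shares 66.8% of the 31-base words of its coding sequence with other genes, chiefly Zfp808, and overlaps Zfp935 on the same strand, and Zfp111 shares 14.8%, so reads of these genes could be split or exchanged.

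At a mean count of 50 or more, the largest rise was that of Zfp459, a KRAB zinc finger gene on chromosome 13 (ENSMUSG00000055560, chr13:67405709-67421418, minus strand). It stood at 43.2, 30.0, 33.3 and 30.9 in VavCre and at 95.1, 145, 125 and 141 in DKO. The lowest DKO library held more than 50 reads above the highest control, and the mean rose 3.60-fold on the log2(value + 1) scale (34.3 ± 6.10 to 127 ± 22.6, SD, n = 4, log2 1.85, SE 0.21, adjusted p = 2.68e-05, limma). It shares 21.3% of its 31-base words with other genes, chiefly Gm10037, and lies over the antisense gene Gm48900. Zfp821, a gene with 2 fingers and no KRAB box (ENSMUSG00000031728, chr8:109705546-109724932), stood at 169, 160.5, 145 and 141 in VavCre and at 362, 420.1, 450.1 and 389 in DKO. Its groups lay far apart relative to their spread (log2 1.39, SE 0.12, adjusted p = 1.98e-06).

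Zfp113, with a KRAB box and 8 fingers, held 143, 132, 103 and 171 in VavCre and 451, 205, 222 and 334 in DKO (log2 1.09, adjusted p = 0.00367, limma). Its DKO libraries differed among themselves by over 2-fold, the first being the highest. Zfp358 held 217, 158, 166 and 172 in VavCre and 346, 308, 399 and 452 in DKO (log2 1.07, adjusted p = 0.000120). The next rises were Zfp691, Zfp775, Zfp704, Zfp773, Zfp608, Zfp688, Zfp281 and Zfp444, from 1.99-fold down to 1.59-fold. Zfp608, known as a repressor of the Rag recombinase genes in thymocytes, held 65.8, 119.9, 112 and 105 in VavCre and 182, 174, 137 and 170.5 in DKO (log2 0.74, adjusted p = 0.00996). Zfp688 lost its call without VavCre replicate 3 (adjusted p = 0.0559) and with the DKO pairs averaged (0.0824), and Zfp444 lost its call with the pairs averaged (0.0555).

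**Figure D3:**
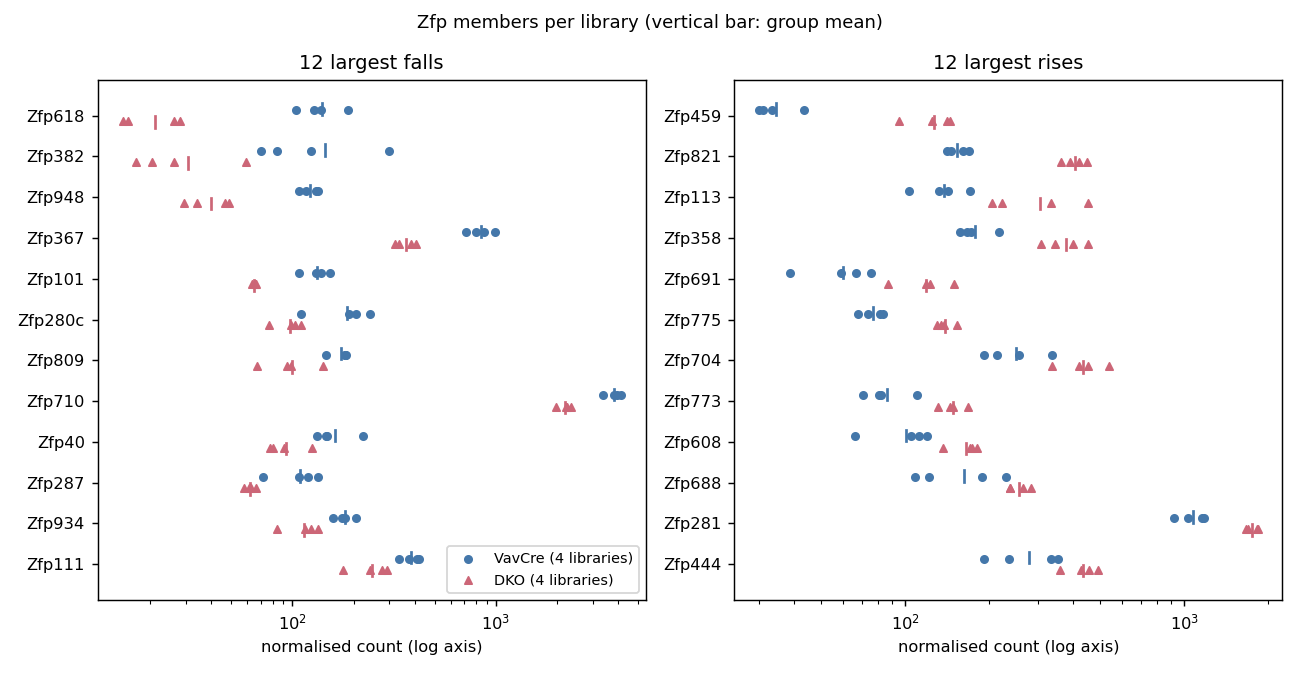
Normalised count per library (horizontal log axis) for the 12 largest falls (left) and the 12 largest rises (right) among called members whose groups did not overlap and whose mean was 50 or more, with 4 VavCre libraries as circles, 4 DKO libraries as triangles and a bar at each group mean. Zfp618 and Zfp382 on the left and Zfp459 and Zfp821 on the right lie farthest apart, and the libraries of Zfp382 and Zfp113 are spread widely within groups.

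The most highly read members were mostly conserved genes without a KRAB box. By mean normalised reads the first 6 were Zfp91, Zfp106, Zfp710, Zfp706, Zfp207 and Zfp281. Per kilobase of exon, the scale on which levels of genes can be compared, the order was Zfp706 (588), Zfp710 (433), Zfp207 (338), Zfp91 (311), Zfp106 (291) and Zfp281 (286). Zfp991 (445) and Zfp703 (386) stood as high on that scale and were named after their values were seen. Zfp281, a factor that binds GC-rich DNA and is known from embryonic stem cells, rose from 1034, 922, 1160 and 1178 in VavCre to 1832, 1828, 1665 and 1687 in DKO (log2 0.71, SE 0.09, adjusted p = 3.92e-05, limma), with no overlap. Zfp91, a ubiquitin ligase of noncanonical NF-kB signalling, stood at 3416, 3229, 3321 and 3871 in VavCre and at 2756, 2795, 2780 and 2834 in DKO (log2 -0.31, adjusted p = 0.00239). Zfp706 and the RNA-binding Zfp106 had log2 fold changes of -0.07 and 0.00, with 95% intervals from -0.28 to 0.15 and from -0.31 to 0.31 and overlapping groups.

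By role, 13 of 15 listed members acting on RNA, ribosomes or ubiquitin and SUMO were tested, of which 1 was higher and 2 lower (23.1%, against 46.6% of all genes tested), with a median log2 fold change of -0.07. Zfp622, a factor of 60S ribosome assembly, stood at 1081, 1207, 1130 and 987 in VavCre and at 1274, 1252, 1384 and 1252 in DKO. The groups did not overlap but lay close together (log2 0.23, adjusted p = 0.0292, limma), and the call was lost without VavCre replicates 1, 3 or 4 or DKO replicates 1 or 3, with adjusted p from 0.0501 to 0.0840, and with the DKO pairs averaged (0.103). Zfp207, a kinetochore protein that binds Bub3, had a log2 fold change of -0.23 (adjusted p = 0.0197), and its call was lost without VavCre replicate 2 or 3 (0.0533 and 0.0558) and with the DKO pairs averaged (0.0928). Zfp830, a protein tied to splicing, had a log2 fold change of 0.26 and did not pass (adjusted p = 0.0812), except under quantile normalization (log2 0.33, adjusted p = 0.0246).

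Of 34 listed regulators of transcription, 30 were tested, 8 higher and 4 lower (12 of 30, against 46.6% of all genes tested), with a median log2 fold change of 0.03. Besides Zfp281, Zfp219, a partner of Sox9 in cartilage, held 381, 409, 347 and 306 in VavCre and 508, 482, 540.2 and 604 in DKO (log2 0.57, adjusted p = 0.00178, limma). Zfp652, a repressor that works with the corepressor Cbfa2t3, held 825, 775, 867 and 885 in VavCre and 1076, 991, 1152 and 1229 in DKO (log2 0.41, adjusted p = 0.00217). Zfp263 fell, from 1461, 1292, 1390.5 and 1450.4 in VavCre to 1148, 1073, 1056 and 1179 in DKO (log2 -0.33, adjusted p = 0.00274). In all 3 genes every DKO library lay on one side of every control.

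Of 14 listed KRAB zinc finger genes known from imprinted regions or retroelements, 11 were tested, with Zfp459 higher and Zfp809 and Zfp445 lower (27.3%, against 46.6% of all genes tested, median log2 fold change -0.13). Zfp809, which recruits Trim28 to the primer binding site of murine leukaemia virus, stood at 145, 183, 182 and 181 in VavCre and at 98.1, 141, 94.0 and 67.2 in DKO (log2 -0.83, SE 0.21, adjusted p = 0.00688, limma). The highest DKO library lay just below the lowest control. Zfp445, which with Zfp57 maintains imprints, stood at 1105, 1115, 1437 and 1502 in VavCre and at 954, 922, 946 and 966 in DKO (log2 -0.43, adjusted p = 0.00534), and its DKO libraries varied far less than its controls. Zfp57 itself was listed at 0. Zfp30 had a log2 fold change of 1.12 at 3.87 to 41.9 reads and passed only without VavCre replicate 1 (adjusted p = 0.0836 with all libraries and 0.0489 without it).

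Clusters of members were taken as runs of at least 8 with starts no more than 500 kb apart. Between 8.33% and 25% of the members of each were called, beside 21.8% of all members and 46.6% of all genes tested. A share of that size leaves uncalled members in every cluster. On chromosome 13, 22 members from Zfp712 to Zfp273 all had a KRAB box, and 2 were higher, Zfp459 and Zfp738, with log2 fold changes over the cluster from -0.58 to 1.85. On chromosome 17, 22 members from Zfp160 to Zfp213 included Zfp948, Zfp40 and Zfp52 lower and Zfp947 higher, and 12 members from Zfp871 to Zfp414 included Zfp101, Zfp955b and Zfp81 lower. On chromosome 7, 15 members from Zfp84 to Zfp146 included Zfp382 and Zfp146 lower. The cluster medians of these 4 lay between -0.11 and 0.09. The 4 other clusters of 8 to 12 members held 1 or 2 called members each. Cluster genes outside the 12 largest rises and falls are named here because they were called, after their values were seen. Chromosome 7 held 85 members, chromosome 17 held 42 and chromosome 13 held 32.

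**Figure D4:**
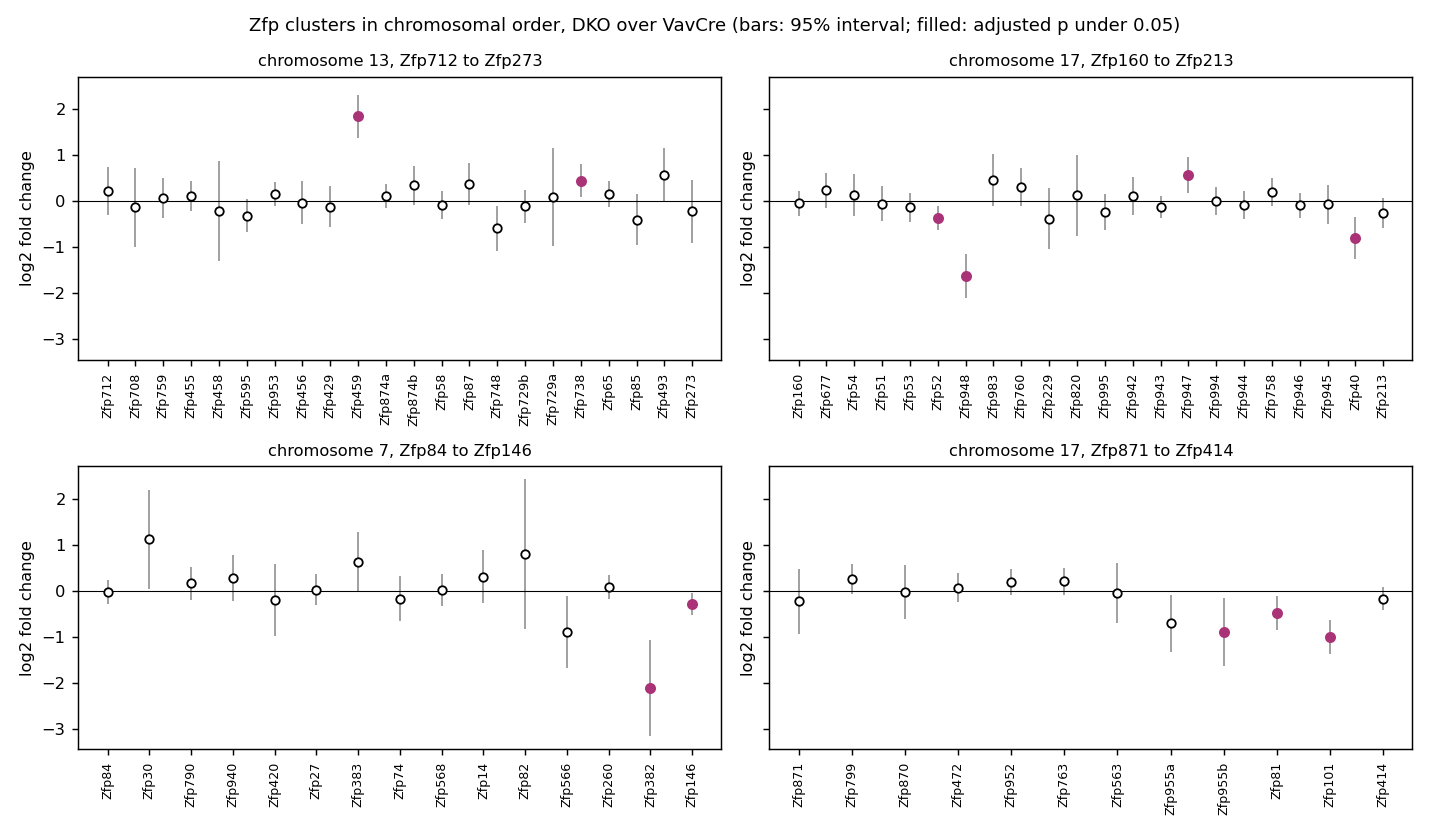
Log2 fold change of DKO over VavCre (vertical axis) with its 95% interval for each member of the 4 largest clusters, in chromosomal order along the horizontal axis. Filled points passed an adjusted p of 0.05. Zfp459, Zfp948 and Zfp382 lie farthest from 0 in their clusters, and Zfp30, which was not called, lies at 1.12 in the cluster of Zfp382.

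Copies of one another limit what can be said of single members: 83 members share at least 10% of the 31-base words of their coding sequence with another gene and 32 at least 50%. Of the 245 members with an annotated protein and under 10%, 30 were higher and 29 lower, where 46.6% of all genes tested were called. The near-identical neighbours Zfp991 and Zfp992, which share 94.8% and 89.4% of their words with other genes, chiefly each other, were both higher, at log2 0.43 and 0.64 (adjusted p = 0.00371 and 6.85e-06, limma). The lowest log2 fold change of any member, -3.66, was that of Zfp781. It stood at 30.5, 31.9, 34.4 and 33.8 reads in VavCre and at 0, 2.01, 0 and 15.6 in DKO. Each of its words occurs in some other gene, chiefly Gm3055. These 3 genes were named after their values were seen.

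At the count threshold, Zfp607b and Zfp473 lay just inside, with a fourth-highest value of 10.6 and 10.7, and Zfp973 and Zfp13 just outside, with 8.70 and 8.68. In 22 members at least 1 library lay under 10. Zfp507 met the threshold through the DKO libraries alone (6.88, 1.93, 4.44 and 1.93 in VavCre, 12.6, 21.1, 22 and 27.3 in DKO), so it had to differ and is among the 38 counted as higher.

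Trim28 and Setdb1, which the KRAB box recruits, were not called by limma with all libraries, and some genes listed with them were lower. The list of 11 genes with Trim28 and Setdb1 also holds the separate methyltransferases Suv39h1, Suv39h2, Ehmt1 and Ehmt2, so it is wider than what the KRAB box recruits. Of these 11 genes, 6 were lower and none higher by limma, with a median log2 fold change of -0.26. That is 54.5% called, all lower, where 46.6% of all genes tested were called and 23.8% were lower. At an unadjusted p under 0.05, 7 were lower and 1 higher, edgeR and DESeq2 called 6 and 7 lower and none higher, and 1 gene was called higher by limma without VavCre replicate 1, VavCre replicate 3 or DKO replicate 2. Trim28 stood at 4523, 4440.3, 3854 and 3081 in VavCre and at 3842, 3531, 4091 and 3846 in DKO, within the control range (log2 -0.04, 95% interval -0.28 to 0.20). Setdb1 had a log2 fold change of -0.26 (adjusted p = 0.0617). The falls were in Suv39h2 (log2 -2.10) and Suv39h1 (-1.16), which methylate histone H3, in the heterochromatin proteins Cbx5 (-1.44), Cbx3 (-0.53) and Cbx1 (-0.35), and in Ehmt1 (-0.21). Suv39h2 went from 206, 166, 198 and 215 in VavCre to 58.3, 43.2, 36.0 and 44.8 in DKO.

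Of 13 genes of the NuRD chromatin complex, 3 were lower by limma and none higher, and the share lower (23.1%) was near that of all genes tested (23.8%). These were Rbbp7 (log2 -1.14), Hdac1 (-0.43) and Rbbp4 (-0.35), while Chd4 lay at the threshold (-0.22, adjusted p = 0.05003). At an unadjusted p under 0.05, 6 were lower and 1 higher, and edgeR and DESeq2 each called 4 lower and none higher. Without VavCre replicate 1, 5 were lower, Chd4 among them, and 1 higher. Of 4 HUSH complex genes tested, Morc2a (-0.56) and Pphln1 (-0.29) were lower, and Mphosph8 and Tasor were not called. Under quantile normalization Mphosph8 passed as higher (log2 0.30, adjusted p = 0.0485). Beside the genes lower in these lists, all 10 markers of dividing cells fell (median log2 fold change -3.01), and their summed level was 23157 to 25777 in VavCre and 3286 to 3450.4 in DKO. All 7 neutrophil markers tested and 3 of 6 monocyte markers were lower too. The part of these markers in the corepressor and Zfp values was not tested, and fewer cells of a type and less RNA per cell cannot be told apart in bulk RNA.

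**Figure D5:**
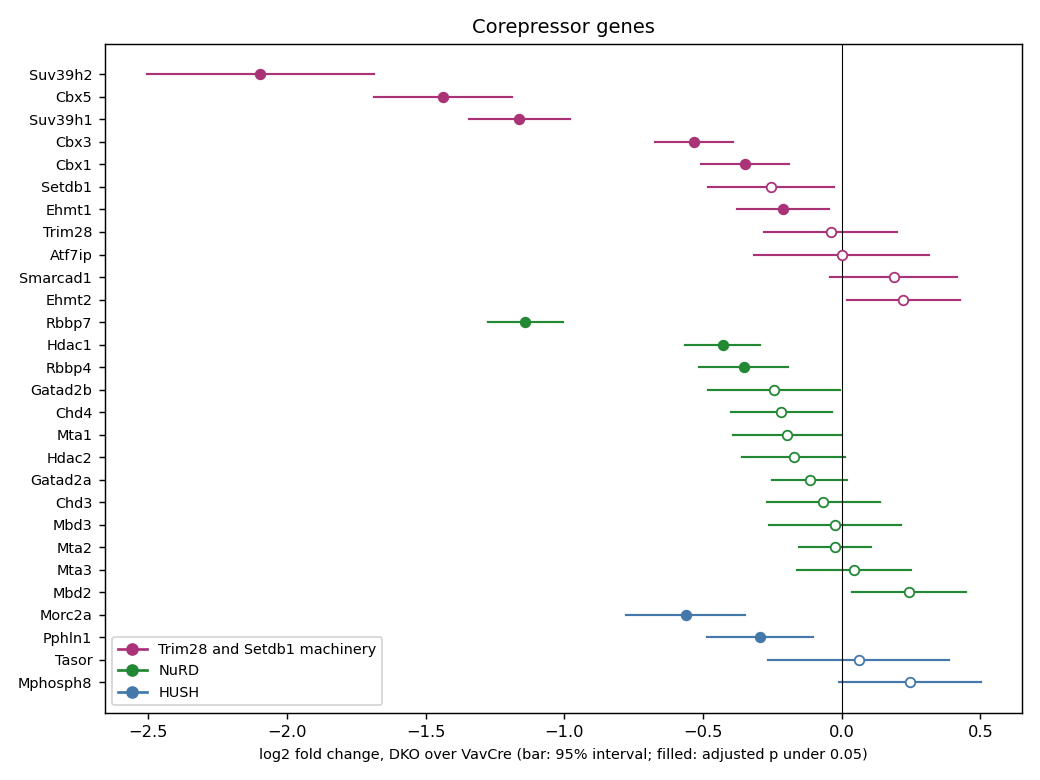
Log2 fold change of DKO over VavCre (horizontal axis) with its 95% interval for genes listed with Trim28 and Setdb1 (labelled as machinery), NuRD and HUSH, 1 gene per line. Filled points passed an adjusted p of 0.05, and Suv39h2, Cbx5, Suv39h1 and Rbbp7 lie lowest while the interval of Trim28 includes 0.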

How the data were processed

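Polyadenylated RNA of 8 libraries had been prepared with the Kapa mRNA HyperPrep kit and sequenced as pairs of 150 bases, per the labels' protocols, and quantified with Salmon 1.4.0 and normalised with DESeq2 on mm10, per the submitters' processing notes. The deposited values are a signal: 1 normalised count per gene and library. In each library 100% of values were whole reads divided by 1 size factor, within 0.01, and these reads gave the depth and entered count models, as alternatives. The sources used here do not name an annotation release, a filter or a strand setting.

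Genes reaching a value of 10 in 4 or more libraries were tested with limma 3.58.1 in R 4.3.3 on log2(value + 1), which understates changes of low genes (two-sided, with genotype alone in the model and eBayes set to trend and robust), with Benjamini-Hochberg adjustment over all 11675 genes and a threshold of 0.05. Single values had exact permutation tests over 70 regroupings, whose smallest p is 0.0286. Alternatives used edgeR 4.0.16, DESeq2 1.42.0, other scalings, filters and pseudocounts, and left out single libraries. The script was tested on simulated data.

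KRAB boxes were found with HMMER 3.4 (E-value up to 0.001, or 1 as the looser alternative) and C2H2 fingers by the spacing of cysteines and histidines, in translations of GENCODE M21 coding transcripts, taking for each gene the protein with the most fingers. The steepest 12 rises and 12 falls named have a mean of at least 50, an adjusted p under 0.05 and no overlap between groups. Also named were the 6 members with the highest mean, 2 genes on each side of the count threshold and up to 4 genes with the smallest adjusted p from each list. The members and lists were chosen with earlier results of these data known. Sequences are from RefSeq (promoters, GRCm38.p6) and GENCODE M21 (fingers).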

Additional observations from a re-analysis of the deposited data

Results flagged for a closer look

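Among 102 groups of 4 libraries examined for the genes named, 3 held a library far from the other 3, and chance flags about 1 in 20 groups. Zfp622 stood at 1384 in DKO replicate 3, with the others between 1252 and 1274. Zfp809 stood at 145 in VavCre replicate 1, with the others between 181 and 183. Mphosph8 stood at 739 in DKO replicate 3, with the others between 571 and 592.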

How the results depend on the processing

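No called gene named here changed sign under any alternative. Of those not called, Zfp106, Zfp607b and Tasor changed sign without single libraries, from -0.11 to 0.15, -0.13 to 0.63 and -0.06 to 0.19. The median of the members ran from -0.04 to 0.11 over all settings. Quantile normalization gave 22 members lower and 53 higher (22.7%, against 47.5% of all genes tested). Averaging DKO replicates 1 with 2 and 3 with 4 gave 24 higher and 23 lower (14.2% against 35.5%). The Cdk8 call was lost without a filter on low values (log2 -0.35, adjusted p = 0.0550, limma), under quantile normalization (-0.27, 0.0867), without the trend and robust options (-0.35, 0.0501) and with a replicate block (-0.35, 0.0517). Without single libraries its log2 fold change ran from -0.46 to -0.28, and the members numbered 30 to 36 higher and 23 to 33 lower. That was 16.6% to 20.8% of the members, against 40.0% to 45.7% of all genes tested. The cause of these shifts was not tested. edgeR called 36 higher and 31 lower, and DESeq2 38 and 36. Without the filter 34 and 26 of 376 Zfp genes were called. Of the comparisons of the other named genes, leaving out Cdk8 and Cdk19, with their first value, 904 kept their side of the threshold, 14 lost a call and 10 gained one. Whether same-numbered libraries were paired is not stated in the labels. Their deviations from the group means had correlations of -0.05, 0.03, -0.04 and -0.04. Those of differently numbered libraries ran from -0.19 to 0.15, and such values cannot show or exclude pairing. With the replicate block 32 members were higher and 26 lower (17.5%, against 39.8% of all genes tested). Pphln1 and Zfp622 lost their calls with it (adjusted p = 0.0542 and 0.0579, limma). At low counts only large changes could be called, with a median standard error of 0.39 under a mean of 50.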
